A study of Mus musculus with 16 samples.

Results

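CD8αβ T cells that arose in a thymic culture were compared with CD4 T cells sorted from spleen, across all genes of an Affymetrix mouse array. The comparison was chosen by its sample titles and used 6 of the 16 arrays of the series, 3 for each population. The first group (CD8abT, n = 3) was sorted as TCRb+CD8a+CD8b+ from RTOC, the labels' abbreviation, usually read as reaggregate thymic organ culture, after selection on the agonist Smcy at the low dose of 100 nM. The second group (CD4T, n = 3) was sorted as CD3+CD4+NK1.1- from wild type C57BL/6 spleen, with no culture or agonist named. About 50000 cells went into a CD8abT sample and about 100000 into a CD4T sample. Lineage, tissue, culture and agonist all change together between these groups and cannot be told apart. The strain, genotype and receptor of the RTOC cells, the stroma of the culture, and the age and sex of the mice are absent from the sources used here, as is the number of animals or cultures behind a sample.

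CD4 and CD8αβ T cells are the main conventional αβ lineages. Both pass through a thymic stage at which immature thymocytes carry both coreceptors, and engagement of MHC class II or class I by the T cell receptor then directs them to the CD4 or CD8 fate. Mature cells leave the thymus, circulate through spleen and lymph nodes in a resting state held by IL-7 and receptors for lymphoid tissue homing, and divide again only after antigen is met. Stimulation by an agonist within the thymus is a separate setting, in which some developing cells are diverted to unconventional fates instead of being deleted.

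All levels below are log2 intensities after quantile normalization over the 6 arrays, and a difference is CD8abT minus CD4T on that scale with the standard error of the fit, so that a difference of 1 is a 2-fold change. A probe set was called when limma's two-sided p-value, adjusted by Benjamini-Hochberg over all 12422 probe sets tested, was under 0.05. A gene with several probe sets is given by its brightest one over the 6 arrays. By that probe set 3.28% of the 8251 genes measured were called higher and 3.27% lower, the shares beside which list counts are to be read. The number of arrays limits the precision, and dim probe sets have compressed differences. The labels do not say whether replicates came from separate animals, cultures or sorts, so the p-values rest on the spread among these 6 samples, which may be technical.

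The arrays differed in more than their labels. The deposited intensities had array medians of 49.6 to 54.1 in CD4T and 30.9 to 31.9 in CD8abT, and the median difference of -0.585 between the groups before normalization was 0.03 after it. The ratio of 3′ to 5′ probe signal of Gapdh, a measure of how much of the transcript's length was amplified, was 8.48, 5.85 and 5.83 on the CD4T arrays and 24.0, 30.4 and 9.47 on the CD8abT arrays, without overlap. The same ratio of actin was 7.02, 3.59 and 3.71 against 6.57, 11.6 and 7.92, with overlap through CD4T replicate 1. CD4T replicate 1 stood apart from the other arrays of its group, with a log2 correlation of 0.951 and 0.942 with replicates 2 and 3, which correlated with each other at 0.997. Its 18S 5′ control signal was 1326 against 59.2 and 54.4, and on the CD8abT arrays the same signal was 129, 857 and 716. The part of array quality and amplification in the differences below was not tested.

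The CD8abT arrays had higher transcripts of the CD8 chains, of the cell division machinery, of the integrin Itgae and of several T cell receptor segments, and lower transcripts of Il7r and other genes of circulating naive T cells, of Cd28, and of genes that B cells express. Of the naive T cell genes, the Il7r call alone held in all 6 fits that left out 1 array. The B cell markers called lower fell from 7 to 1 without CD4T replicate 3. The test called 728 of 12422 probe sets (5.86%), of which 359 were higher (2.89%) and 369 lower (2.97%) in CD8abT, and 3000 had an unadjusted p under 0.05 (24.2%). Among the called, 202 higher (1.63%) and 243 lower (1.96%) differed by at least 1. With arrays centred on their medians and no quantile step, 457 were higher and 300 lower, so the higher calls were 60.4% of all calls there against 49.3%. Each CD8abT array lay above each CD4T array for 2077 probe sets (16.7%) and below each for 1831 (14.7%).

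The number of calls rested on which arrays were used. It was 1892 without CD4T replicate 1 and 3626 without replicate 1 of both groups. It was 82 without CD4T replicate 2, 101 without CD4T replicate 3, 159 without CD8abT replicate 2, 309 without CD8abT replicate 3 and 586 without CD8abT replicate 1. Since CD4T replicates 2 and 3 were far closer to each other than any other pair (SD of their log2 difference 0.145, against 0.401 to 0.633 for other pairs within a group), leaving out either leaves a more distant pair. Nothing in the labels shows that these replicates are independent samples. Repeat arrays of the same RNA would make the p-values too small. Of the 30 genes with the largest called differences, 18 kept their call in all 6 fits that left out 1 array, and of 128 called genes under the naming rule 38 did.

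**Figure D1:**
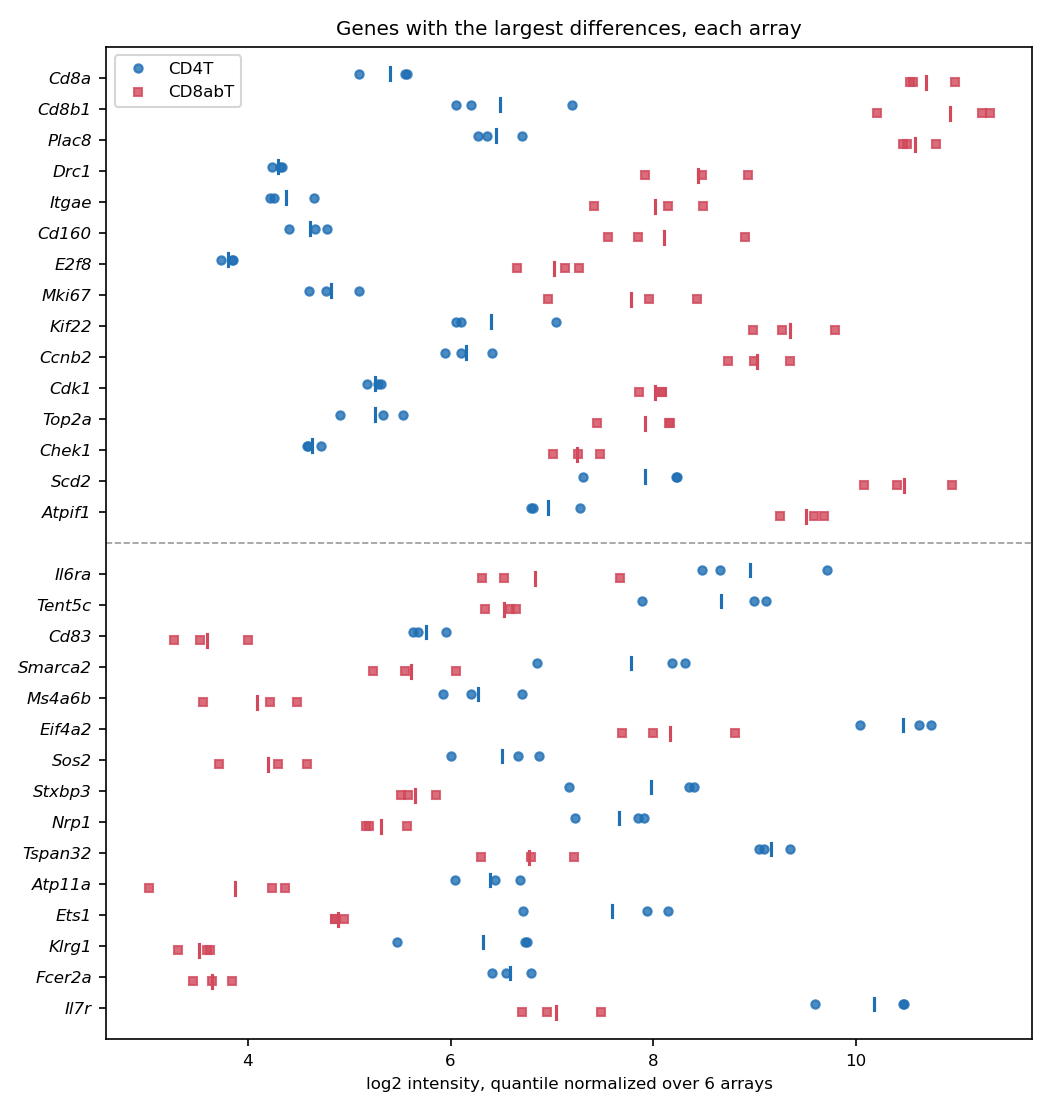
Log2 intensity, quantile normalized over 6 arrays, of the 15 genes called higher (above the dashed line) and the 15 called lower in CD8abT with the largest differences, receptor and immunoglobulin segments left out, 1 point per array and a vertical bar at each group's mean. No gene shows overlap between the 3 CD4T arrays (circles) and the 3 CD8abT arrays (squares), which the choice of genes required, and for Il7r, Klrg1, Ets1, Stxbp3 and Smarca2 CD4T replicate 1 lies nearest to the CD8abT arrays.

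The gate genes check the labels. Cd8a, the chain shared by both CD8 forms, read 5.10, 5.55 and 5.57 on the CD4T arrays and 10.98, 10.56 and 10.53 on the CD8abT arrays, a difference of 5.29 ± 0.20 (39-fold, adjusted p = 0.00014). Cd8b1, the chain that marks the conventional αβ form, read 7.20, 6.05 and 6.20 against 10.21, 11.24 and 11.32 (4.44 ± 0.41, 21.8-fold, adjusted p = 0.0040). Both genes separated the groups on every array, as the gates require, and kept their calls in each fit that left out 1 array.

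Cd4 went the way of its gate by a smaller step. It read 7.39, 7.68 and 7.93 in CD4T and 6.95, 6.80 and 6.98 in CD8abT, a difference of -0.76 ± 0.17 that did not pass the test (adjusted p = 0.055). Leaving out 1 array gave adjusted p-values of 0.018 to 0.24. The groups did not overlap, but the CD8abT arrays were above their array medians, and the labels do not name CD4 in the gate of the RTOC cells. The signalling chains of the receptor complex that both gates include did not pass the test: Cd3e was 0.03 ± 0.25, Cd3d 0.05 ± 0.23, Cd3g 1.17 ± 0.56 and Cd247 -0.60 ± 0.28.

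Genes of the double-positive thymocyte stage gave 1 call in each direction. Dntt, which adds untemplated bases during receptor rearrangement, was not called on any of its 3 probe sets, and the brightest read 5.91, 5.70 and 5.89 in CD4T and 5.25, 5.89 and 5.12 in CD8abT. Rag1 (-0.28 ± 0.24), Rag2 (0.41 ± 0.37) and Ptcra (-0.03 ± 0.12), which serve rearrangement and the pre-receptor, were not called either, and the values of Rag2 and Ptcra lay below the array median on all 6 arrays. Of 10 measured genes of this stage the calls were Ccr9 (higher, 10%) and Cd1d1 (lower, 10%). Cd24a, a surface protein lost as thymocytes mature, was 0.81 ± 0.30 without passing the test (adjusted p = 0.16), with CD8abT replicates 1 and 2 at 7.46 and 7.94 and replicate 3 at 6.73.

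Cell division genes held more increases than any other of the 37 gene lists. Of 54 genes of replication, mitosis and their control, 49 were measured, 28 were called higher in CD8abT (57.1%) and none lower, where 3.28% of all 8251 measured genes were called higher and 3.27% lower. The median difference was 1.23 against 0.03 over all genes, and 47 of 49 differences were above 0. Cell number and RNA content cannot be separated in such bulk samples: a larger fraction of dividing cells and more of these transcripts in each cell would give the same values.

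Several genes of mitosis had large differences. Cdk1, the kinase that starts mitosis, read 5.28, 5.18 and 5.31 in CD4T and 7.86, 8.09 and 8.09 in CD8abT, a 6.77-fold difference (2.76 ± 0.14, adjusted p = 0.00052). Ccnb2, a B-type cyclin that activates it, read 6.41, 6.10 and 5.94 against 8.74, 8.99 and 9.35 (2.88 ± 0.21, adjusted p = 0.0016). The spindle kinesin Kif22 read 7.04, 6.10 and 6.05 against 8.98, 9.27 and 9.79 (2.95 ± 0.33, adjusted p = 0.0067). For all 3 genes every CD8abT array lay above every CD4T array. Top2a, which untangles replicated chromosomes, was 2.66 ± 0.26 higher, the anaphase activator Cdc20 2.18 ± 0.12 and the passenger protein Birc5 2.03 ± 0.21. Mki67, the antigen scored as Ki-67, read 5.10, 4.60 and 4.77 against 6.96, 7.96 and 8.43 (2.96 ± 0.37, adjusted p = 0.010), and a second, dimmer probe set of it was not called (0.34 ± 0.14).

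Replication and checkpoint genes were among the calls too. The DNA damage kinase Chek1 read 4.59, 4.58 and 4.72 in CD4T and 7.26, 7.47 and 7.01 in CD8abT (2.62 ± 0.16, 6.15-fold, adjusted p = 0.0011), and the origin licensing factor Cdc6 was 1.95 ± 0.18 higher. Pcna, the sliding clamp of the replication fork, read 7.98, 8.39 and 8.60 against 9.72, 9.51 and 9.85 (1.37 ± 0.20). Of the replicative helicase, Mcm2 (1.13 ± 0.14), Mcm5 (1.00 ± 0.19) and Mcm7 (0.88 ± 0.18) were called, while Mcm3 (1.04 ± 0.30), Mcm4 (0.31 ± 0.52) and Mcm6 (0.27 ± 0.16) were not. The cyclins of the G1 phase were not called. Ccnd2 was -0.30 ± 0.20 and Ccnd3 0.33 ± 0.35, neither called, and both Ccne1 (0.73 ± 0.20) and Ccne2 (0.16 ± 0.16) stayed below the call. E2f8, an atypical E2F that represses replication genes and stood outside the list, read 3.84, 3.73 and 3.85 against 7.13, 7.27 and 6.65 (3.21 ± 0.19, 9.23-fold).

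The count of 28 fell to 11 without CD4T replicate 2, 13 without CD4T replicate 3 and 14 without CD8abT replicate 2, and was 33 without CD4T replicate 1 and 35 without replicate 1 of both groups. Cdk1, Ccnb2, Kif22, Top2a, Chek1, Cdc20, Birc5 and Cdc6 kept their calls in each of the 6 fits that left out 1 array. Mki67 did not (adjusted p up to 0.064, without CD4T replicate 2). Of the replication genes, Pcna lost its call in 3 of these fits, Mcm2 in 2, Mcm5 in 5 and Mcm7 in 4. Mcm5 and Mcm7 also lost theirs with median centring. The inhibitors and quiescence genes did not mirror the group: of 19 measured, 1 was called higher (Cdkn2c, 0.81 ± 0.16) and none lower, with a median difference of -0.21. The Cdkn2c call was lost in 4 of the 6 fits that left out 1 array and with median centring.

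**Figure D2:**
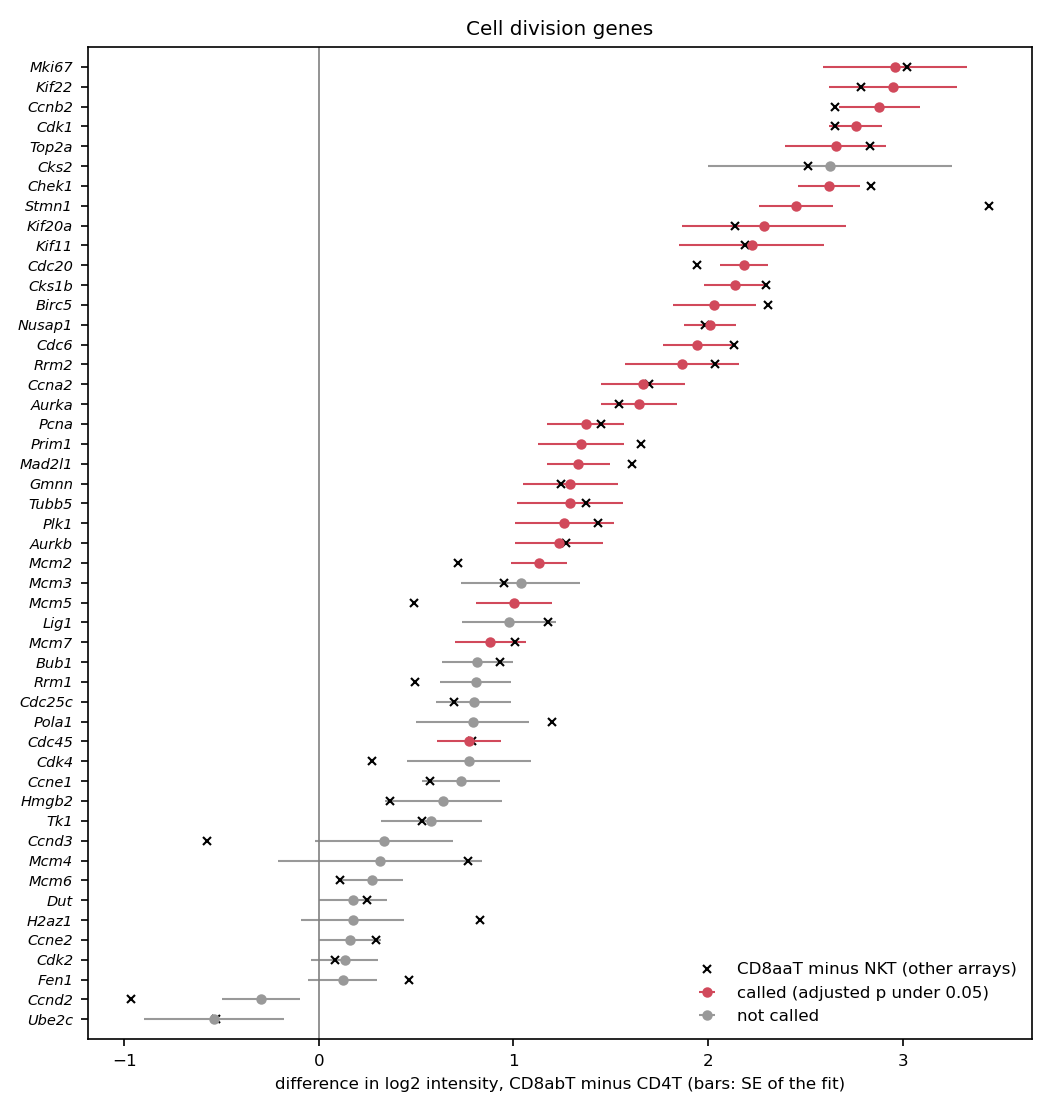
Differences in log2 intensity, CD8abT minus CD4T, for the 49 cell division genes measured, with bars of 1 SE of the fit, red where called, grey where not, and crosses for CD8aaT minus NKT on 6 other arrays. Mitotic genes such as Mki67 (2.96) and Cdk1 (2.76) lie at the top, Ccnd2 (-0.30) and Ube2c (-0.54) at the bottom, and most crosses fall near the point of the same gene.

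Promoter sequences were set beside this group because mitotic genes share known promoter elements, a CCAAT box and, close to the start, a cell cycle homology element such as TTTGAA, while replication genes often carry E2F sites. The 280 bases shown run from 250 before to 30 after the annotated start, 5′ to 3′ on the gene's strand, from RefSeq on GRCm38.p6, with capitals marking CCAAT and TTTGAA as well as the E2F words TTTCCCGC, TTTCGCGC, TTTGCCGC and TTTGGCGC on either strand. The first 4 genes are those of the list with the largest called differences that have a promoter in the table, and Mcm7, a called replication gene, was picked after its sequence was seen, for contrast.
Mki67: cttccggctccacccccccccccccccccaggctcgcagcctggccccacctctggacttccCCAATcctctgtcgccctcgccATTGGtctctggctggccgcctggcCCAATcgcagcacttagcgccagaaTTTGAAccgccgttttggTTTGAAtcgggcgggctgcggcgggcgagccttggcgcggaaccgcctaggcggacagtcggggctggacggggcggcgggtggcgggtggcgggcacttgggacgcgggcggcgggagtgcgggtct
Kif22: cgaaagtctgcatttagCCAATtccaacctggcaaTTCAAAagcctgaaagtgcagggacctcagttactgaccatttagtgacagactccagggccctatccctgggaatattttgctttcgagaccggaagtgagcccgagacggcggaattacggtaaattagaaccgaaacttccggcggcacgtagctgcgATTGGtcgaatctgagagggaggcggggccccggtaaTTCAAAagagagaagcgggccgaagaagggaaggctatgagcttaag
Ccnb2: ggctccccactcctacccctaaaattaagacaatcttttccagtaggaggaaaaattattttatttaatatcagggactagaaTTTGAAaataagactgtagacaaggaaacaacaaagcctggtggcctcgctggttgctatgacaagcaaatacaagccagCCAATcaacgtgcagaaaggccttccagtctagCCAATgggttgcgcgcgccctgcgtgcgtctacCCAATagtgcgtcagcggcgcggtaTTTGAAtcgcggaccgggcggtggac
Cdk1: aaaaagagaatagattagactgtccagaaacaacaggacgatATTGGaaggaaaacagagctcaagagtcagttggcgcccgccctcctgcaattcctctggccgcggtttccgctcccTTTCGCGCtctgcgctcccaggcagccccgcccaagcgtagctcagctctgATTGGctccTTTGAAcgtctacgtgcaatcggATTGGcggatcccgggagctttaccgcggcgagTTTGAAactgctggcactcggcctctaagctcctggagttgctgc
Mcm7: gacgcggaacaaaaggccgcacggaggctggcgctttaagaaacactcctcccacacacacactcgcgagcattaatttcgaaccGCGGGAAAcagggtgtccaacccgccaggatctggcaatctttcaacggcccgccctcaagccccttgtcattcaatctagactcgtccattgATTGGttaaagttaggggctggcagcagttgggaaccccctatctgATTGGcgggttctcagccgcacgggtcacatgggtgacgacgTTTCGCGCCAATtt
Mki67 lies at chr7:135716350-135716629, Kif22 at chr7:127042391-127042670, Ccnb2 at chr9:70421525-70421804, Cdk1 at chr10:69352883-69353162 and Mcm7 at chr5:138171854-138172133, all on the minus strand. Each of the first 4 holds TTTGAA at 2 positions and CCAAT at 2 or 3. In Cdk1 a TTTGAA starts 15 bases before the annotated start and the nearest CCAAT 48 bases before it. Mcm7 holds E2F words at 2 positions, 1 of which overlaps a CCAAT, and no TTTGAA.

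Over the whole list, both CCAAT and TTTGAA were found within 250 bases before and 50 after the start in 12 of 23 called genes with a promoter in the table (52.2%) and in 2 of 17 genes not called (11.8%). Among all measured genes with a promoter there, 363 of 6576 held both (5.52%), and 7.12% of the 27025 promoters of the table did. The E2F words were in 4 of 23 called (17.4%) and 4 of 17 uncalled members (23.5%), against 3.79% of the 6576. A match describes the letters of the window and is not evidence of binding. Where no word was found, that says only that these letters are not in this window.

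Genes of naive, recirculating T cells were lower in CD8abT. Of 12 measured, 6 were called lower (50%) and none higher, with a median difference of -1.05. Il7r, the receptor chain for the survival cytokine IL-7, read 9.59, 10.47 and 10.46 in CD4T and 7.48, 6.95 and 6.70 in CD8abT, 8.75-fold lower (-3.13 ± 0.31, adjusted p = 0.0047), the largest decrease among the 30 genes with the largest called differences. No CD8abT array reached the lowest CD4T array, which the choice of those 30 genes required. The call held in each fit that left out 1 array.

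Genes of exit from and entry into lymphoid tissue followed with smaller steps. Ccr7, which guides cells into lymph nodes, read 6.05, 6.30 and 6.67 against 4.76, 5.23 and 5.50 (-1.18 ± 0.25, adjusted p = 0.044). S1pr1, the receptor used to leave thymus and lymph nodes, read 5.20, 5.12 and 5.34 against 3.85, 4.35 and 4.33 (-1.04 ± 0.18, adjusted p = 0.026), near the floor in CD8abT, and a dimmer probe set of it was not called (0.07 ± 0.29). Il6ra, the IL-6 receptor that naive CD4 cells carry, was -2.11 ± 0.45, the quiescence factor Foxp1 -1.06 ± 0.20 and the complement regulator Cd55 -1.51 ± 0.24, the last on a probe set below the array median throughout. Klf2, the factor that drives S1pr1, read 7.98, 8.07 and 8.01 against 7.72, 8.39 and 7.94, with complete overlap and a difference of 0.00 ± 0.19. The integrin chains Itgal (0.05 ± 0.15) and Itgb7 (-0.55 ± 0.34) were not called. Apart from Il7r, each call of this list was lost in at least 4 of the 6 fits that left out 1 array, with adjusted p-values up to 0.19, and the count of 6 was 1 to 3 without CD4T replicate 2 or 3 or any 1 CD8abT array.

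Calls among cytokine receptors were mostly lower. Of 28 measured, 4 were called lower (14.3%), Il7r, Il6ra, Il18r1 and Il27ra, and 1 higher (3.57%), Kit, with a median of -0.13. Il18r1, the binding chain for IL-18, read 6.43, 6.33 and 6.39 in CD4T and 4.20, 4.32 and 4.96 in CD8abT (-1.89 ± 0.22). Il27ra, the receptor for IL-27, read 9.94, 9.91 and 9.91 against 8.20, 8.49 and 8.75 (-1.44 ± 0.17). Neither overlapped. Kit, the receptor for stem cell factor found on early thymocytes, was 1.21 ± 0.20 higher from a level under the array median in CD4T. Without CD4T replicate 2 the adjusted p of Il18r1 was 0.056, of Il27ra 0.063 and of Kit 0.15. The count of 4 was 7 without CD4T replicate 1 and 1 without CD4T replicate 2 or 3.

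Chemokine receptors split, with 5 of 15 lower (33.3%), 1 higher (6.67%) and a median of -0.11. Ccr9, which draws T cells to the thymus cortex and the small intestine, read 4.07, 4.42 and 4.49 in CD4T and 6.10, 7.01 and 6.58 in CD8abT (2.24 ± 0.26, 4.72-fold, adjusted p = 0.0073). Cxcr5, the receptor of follicular T and B cells, read 6.96, 6.65 and 6.75 against 5.26, 5.57 and 5.36 (-1.39 ± 0.16). Neither gene overlapped between the groups, and Ccr9 was high on each CD8abT array. The receptors of effector and memory cells Cxcr3 (-1.67 ± 0.34), Ccr6 (-1.28 ± 0.16) and Ccr2 (-1.37 ± 0.26) were lower, and Ccr7 is given above. Of these, Ccr9 (adjusted p = 0.052 without CD4T replicate 2) and Cxcr5 (0.051 without CD4T replicate 3) each lost the call in 1 fit that left out an array. The others were less stable: of the 6 such fits, Ccr6 lost its call in 3, Cxcr3 in 4 and Ccr2 in 5. The count of 5 fell to 1 without CD4T replicate 2 or CD8abT replicate 2, to 0 without CD4T replicate 3, to 2 without CD8abT replicate 3 and to 3 without CD8abT replicate 1.

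Adhesion and intraepithelial genes included some of the largest increases. Itgae, the αE integrin chain CD103 that binds E-cadherin on epithelium, read 4.22, 4.26 and 4.65 in CD4T and 7.41, 8.14 and 8.49 in CD8abT (3.64 ± 0.29, 12.4-fold, adjusted p = 0.0025). A second probe set differed by 3.99 ± 0.27. Cd160, an immunoglobulin-like receptor of intestinal and cytotoxic lymphocytes, read 4.41, 4.66 and 4.78 against 7.55, 7.85 and 8.90 (3.48 ± 0.35, 11.2-fold, adjusted p = 0.0047). Both were under the array median on every CD4T array and kept their calls in each fit that left out 1 array. Itgb1, the chain of many matrix-binding integrins, read 10.75, 10.92 and 11.01 against 9.01, 9.42 and 9.02 (-1.75 ± 0.17, adjusted p = 0.0046), and it too kept its call.

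Cytotoxic genes rose in part. Of 18 measured, 3 were called higher (16.7%), 1 lower (5.56%), and the median was 0.23. Gzmb, a granule protease that kills target cells, read 5.26, 5.01 and 5.13 in CD4T and 7.10, 7.35 and 7.25 in CD8abT (2.10 ± 0.14, 4.29-fold, adjusted p = 0.0014). Ctsw, a cathepsin of cytotoxic lymphocytes, read 6.80, 6.54 and 6.62 against 8.10, 8.90 and 9.08 (2.04 ± 0.27), and Cst7, an inhibitor of granule cathepsins, was 1.00 ± 0.14. No group overlapped for these genes. Fasl, which triggers death through Fas, went the other way, at 6.55, 5.98 and 6.07 against 4.08, 4.26 and 4.42 (-1.95 ± 0.20, adjusted p = 0.0048). Gzmb and Fasl kept their calls in each fit that left out 1 array, while Ctsw (adjusted p up to 0.079) and Cst7 (up to 0.11) lost theirs in 3, and the count of 3 was 1 without CD4T replicate 2, CD4T replicate 3 or CD8abT replicate 2.

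Of 16 helper and effector cytokines measured 2 were called, both lower (12.5%), with a median difference of -0.02 and 8 differences on each side of 0. Ifng, the type II interferon, read 4.90, 5.18 and 5.41 in CD4T and 3.23, 3.01 and 3.34 in CD8abT (-1.97 ± 0.18, 3.92-fold lower, adjusted p = 0.0040), with 5 of 6 arrays under the array median. Tnf was -0.76 ± 0.16 (adjusted p = 0.047), a call lost in 5 of the 6 fits that left out 1 array (adjusted p 0.035 to 0.23). Il4 was among the members not called (-0.82 ± 0.20). Klrg1, an inhibitory receptor of effector cells, read 5.47, 6.73 and 6.75 against 3.31, 3.60 and 3.63 (-2.80 ± 0.35, adjusted p = 0.010), a call lost without CD4T replicate 2 (adjusted p = 0.063), CD4T replicate 3 or CD8abT replicate 2.

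Costimulation showed 1 step in each direction among 16 receptors (6.25% each). Cd28, the receptor that naive T cells need beside antigen, read 8.83, 9.08 and 9.04 in CD4T and 6.50, 7.29 and 6.84 in CD8abT, 4.31-fold lower (-2.11 ± 0.22, adjusted p = 0.0055), without overlap and called in each fit that left out 1 array. The increase was that of Cd160. None of 19 T cell receptor signalling components was called, with a median of 0.07 and a range of -0.94 to 0.53. At an unadjusted p under 0.05 limma gave 1 higher and 3 lower, beside 24.2% of all probe sets in either direction. Sos2, a Ras exchange factor, was outside that list and read 6.00, 6.66 and 6.87 against 3.72, 4.30 and 4.58 (-2.31 ± 0.30, adjusted p up to 0.079 without CD4T replicate 2).

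Genes induced early after antigen receptor engagement did not move as a group. Of 22 measured, 4 were called lower (18.2%), 2 higher (9.09%), and the median was 0.02. Dusp1, a phosphatase of MAP kinases, read 5.85, 5.95 and 5.93 in CD4T and 3.93, 4.44 and 4.33 in CD8abT (-1.68 ± 0.17, adjusted p = 0.0049). Cd83, an activation-induced surface protein, read 5.68, 5.63 and 5.95 against 3.27, 3.53 and 4.0 (-2.15 ± 0.22, adjusted p = 0.0048), on the brighter of its probe sets, the other not being called (-0.04 ± 0.13). These 2 calls held in each fit that left out 1 array. Zfp36, which destabilizes cytokine mRNAs, was -1.15 ± 0.16 and the G protein regulator Rgs2 -1.45 ± 0.23. The growth regulator Myc, at 3.73, 4.19 and 4.26 against 5.05, 5.31 and 5.45, was higher (1.21 ± 0.20, adjusted p = 0.023), as was the nuclear receptor Nr4a2 (1.02 ± 0.16), both on dim probe sets. Without CD4T replicate 2 their adjusted p-values were 0.11 for Myc, 0.14 for Nr4a2, 0.11 for Zfp36 and 0.12 for Rgs2.

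Transcription factors of the CD4 and CD8 lineages gave 3 calls among 12 genes, all lower (25%). Runx1, a Runt factor of T cell development, read 5.82, 5.88 and 5.97 in CD4T and 4.25, 4.52 and 4.39 in CD8abT (-1.50 ± 0.14, adjusted p = 0.0040), and this call alone held in each fit that left out 1 array. Gata3, which promotes the CD4 fate, read 7.06, 7.89 and 7.86 against 6.03, 6.49 and 6.34 (-1.31 ± 0.26, adjusted p = 0.039, and up to 0.19 without CD4T replicate 2). Ets1 read 6.71, 7.94 and 8.14 against 4.86, 4.95 and 4.86 (-2.71 ± 0.36, adjusted p = 0.012, and up to 0.079 without CD4T replicate 2). Another probe set of Ets1, dim in CD4T at 4.97 to 4.99, was 0.42 ± 0.16 and not called. Zbtb7b, the CD4 commitment factor ThPOK, read 6.48, 6.46 and 6.22 against 6.36, 6.01 and 6.11, with overlap and no call (-0.23 ± 0.16). The HLH inhibitors Id2 (-1.78 ± 0.44, adjusted p = 0.067) and Id3 (1.00 ± 0.27, adjusted p = 0.083) lay on opposite sides of 0, neither called and neither overlapping between the groups.

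Regulatory T cell genes, which a CD4 gate can include, gave 1 call in each direction among 14 (7.14% each). Nrp1, a semaphorin receptor of thymus-derived regulatory cells, read 7.23, 7.85 and 7.91 in CD4T and 5.19, 5.17 and 5.57 in CD8abT (-2.35 ± 0.23, 5.11-fold lower, adjusted p = 0.0046), and a second probe set was also called lower (-2.01 ± 0.23). The call higher was Itgae, which some regulatory cells express as well. The summed linear signal of the 14 genes was 1050 to 1220 in CD4T and 998 to 1130 in CD8abT, and the ranges overlapped.

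T cell receptor segments held the largest difference of any gene. Trgv1, a variable segment of the γ chain, read 5.76, 5.94 and 6.07 in CD4T and 11.48, 11.54 and 10.98 in CD8abT (5.42 ± 0.19, 42.7-fold, adjusted p = 0.00014). Trgv4, another γ segment, read 3.99, 4.29 and 4.39 against 8.62, 8.67 and 8.88 (4.50 ± 0.16, 22.6-fold, adjusted p = 0.00014). Both γ segments were high on all 3 arrays of cells sorted as TCRb+. Trav9d-3, an α segment, was 2.67 ± 0.28 higher and Trbv13-2, a β segment, 1.49 ± 0.13, each with a second probe set called the same way. The remaining probe set of Trav9d-3, a dim one, lay on the other side of 0 without being called (-0.60 ± 0.15, adjusted p = 0.073) and without overlap. Of the 8 segments measured 4 were called, all higher and in each fit that left out 1 array. Variable segments share sequence, and the array's probe sets can read several of them, so the identity of a segment is uncertain. In the list of NK cell and γδ T cell markers, 10 were measured, none was called higher and Klra7 was called lower (-0.89 ± 0.14). The Klra7 call was lost in 4 of the 6 fits that left out 1 array. The summed signal of the list was 419 to 631 in CD4T and 592 to 787 in CD8abT, with overlap.

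B cell markers gave 7 calls lower in CD8abT and immunoglobulin segments 2. Igkv6-23, a κ variable segment, read 8.59, 7.16 and 7.31 in CD4T and 3.49, 3.42 and 3.29 in CD8abT (-4.28 ± 0.37, 19.5-fold lower, adjusted p = 0.0034). Of 28 immunoglobulin segments it and Ighd were the 2 called, both lower (7.14%), with a median of -0.10 and 8 differences above 0. Of 21 B cell markers, 7 were called lower (33.3%) and none higher, with a median of -0.74. Fcer2a, the low-affinity IgE receptor CD23 of follicular B cells, read 6.79, 6.55 and 6.41 against 3.46, 3.65 and 3.84 (-2.93 ± 0.17, 7.63-fold lower, adjusted p = 0.00097). H2-Aa, an MHC class II chain, read 8.58, 7.23 and 7.17 against 5.43, 5.80 and 5.86 (-1.97 ± 0.39). CD4T replicate 1 was the highest array for all 3 of these genes.

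The summed linear signal of the 21 B cell markers was 3939 on CD4T replicate 1, 2248 and 2220 on the others, and 1428, 1545 and 2102 on the CD8abT arrays, so the groups did not overlap. The part of B cell RNA in the lower values was not tested. Igkv6-23 and Fcer2a were called without CD4T replicate 1 and in each other fit that left out 1 array, whereas H2-Aa was called only without CD4T replicate 1. The count of 7 was 10 without that array and 1 to 4 without any other. The other 5 genes called lower in this list were Cxcr5, Blk, Cd22, H2-Ob and Ighd, the last of which is also on the segment list.

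MHC class I presentation genes gave 2 calls among 15, both lower (13.3%). Cd1d1, which presents lipids and is highly expressed by thymocytes, read 8.12, 7.96 and 7.99 in CD4T and 5.79, 6.39 and 6.21 in CD8abT (-1.90 ± 0.18, 3.73-fold lower, adjusted p = 0.0046). The probe sets of H2-K1, a polymorphic class I heavy chain, disagreed. The brightest read 11.69, 12.61 and 12.73 against 10.46, 10.55 and 10.22 (-1.93 ± 0.29), another was called lower (-1.80 ± 0.22), and the remaining one was called higher (1.84 ± 0.28). H2-K1 has near-identical relatives, and the strain of the RTOC cells is not given, so no direction is assigned to the gene. Of 12 thymic selection and post-selection genes H2-K1 alone was called, with a median of -0.53 and 6 lower at an unadjusted p under 0.05. None of 25 interferon-induced genes was called by limma, and their median was -0.24, with 2 higher and 6 lower at an unadjusted p under 0.05. Of all probe sets 24.2% were under that p in either direction.

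The calls among sterol and lipid synthesis genes and among respiratory chain genes were all higher. Scd2, a desaturase that makes monounsaturated fatty acids, read 7.31, 8.23 and 8.22 in CD4T and 10.95, 10.08 and 10.40 in CD8abT (2.56 ± 0.33, 5.90-fold, adjusted p = 0.011), and a second probe set was called the same way. It lost the call in 1 fit (adjusted p = 0.051 without CD4T replicate 2). Of 22 sterol and lipid synthesis genes 3 were called higher (13.6%), namely Scd2, Fdps and Ebp, and none lower, with a median of 0.40. That count was 0 without CD4T replicate 2 and 1 without CD4T replicate 3 or CD8abT replicate 2. Atpif1, an inhibitor of the mitochondrial ATP synthase, read 7.28, 6.81 and 6.79 against 9.68, 9.58 and 9.25 (2.55 ± 0.20, 5.85-fold, adjusted p = 0.0022) and kept its call throughout. Of 71 respiratory chain genes 6 were called higher (8.45%), none lower, with a median of 0.41 and 60 differences above 0. Among the 6 were Ndufb6 (1.24 ± 0.13) and Uqcrq (2.12 ± 0.44).

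Of 38 proteasome subunits 4 were called higher (10.5%), with a median of 0.19, Psmb6 reading 7.17, 6.85 and 6.92 against 8.12, 8.12 and 8.09 (1.13 ± 0.14). The counts of respiratory chain and proteasome genes also moved with the arrays used. They were 21 and 7 without CD4T replicate 1, and 0 and 0 without CD4T replicate 2 or CD4T replicate 3. Without CD8abT replicates 1, 2 or 3 they were 4, 1 and 1 for the respiratory chain and 2, 0 and 2 for the proteasome. Among 23 glycolysis and hypoxia genes 1 was called higher and 1 lower (4.35% each). They were Pgam1, a glycolytic mutase (1.20 ± 0.15), and Pdk1, a kinase that keeps pyruvate out of mitochondria (-1.55 ± 0.24). Their adjusted p-values were 0.064 and 0.11 without CD4T replicate 2. Of 35 cytosolic ribosomal protein genes 2 were called, both higher (5.71%). With median centring in place of the quantile step, more ribosomal protein genes were called higher, and Rps19, Rps24 and Rps28, not called and below 0 here, were called above 0.

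Genes of survival and stress gave small counts of calls. Of 21 BCL2 family and cell death genes 2 were called lower (9.52%, against 3.27% of all genes). They were Mcl1, an antiapoptotic protein (-0.92 ± 0.15), and Cflar, which blocks caspase-8 (-1.04 ± 0.16). Without CD4T replicate 2 their adjusted p-values were 0.16 and 0.14. None of 16 heat shock genes was called by limma, with a median of -0.43 and 5 lower at an unadjusted p under 0.05. Of all probe sets 24.2% were under that p in either direction. Amino acid and ER stress genes gave 1 call in each direction among 33 (3.03% each), near the 3.28% higher and 3.27% lower of all genes. Among SOCS and STAT genes Ptpn2 was called lower (-0.67 ± 0.13, 1 of 18, 5.56%), and among Notch pathway genes Psen2 (-1.60 ± 0.19, 1 of 18, 5.56%). Of the 6 fits that left out 1 array, Ptpn2 lost its call in 5 and Psen2 in 2.

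Several of the remaining large decreases fell outside the lists. Tspan32, a tetraspanin of blood cells, read 9.35, 9.04 and 9.09 in CD4T and 6.30, 7.22 and 6.79 in CD8abT (-2.39 ± 0.25, 5.23-fold lower, adjusted p = 0.0052), with its call kept in each fit that left out 1 array. The translation initiation helicase Eif4a2 read 10.04, 10.62 and 10.74 against 8.81, 8.0 and 7.69 (-2.30 ± 0.33), and the chromatin remodelling ATPase Smarca2 read 6.85, 8.31 and 8.18 against 5.55, 6.05 and 5.23 (-2.18 ± 0.42). Neither overlapped, which the choice of genes required. The secretory factor Stxbp3 (-2.32 ± 0.34), the lipid flippase Atp11a (-2.51 ± 0.38), the tetraspan protein Ms4a6b (-2.19 ± 0.30) and the RNA terminal transferase Tent5c (-2.14 ± 0.33) were lower too, each with a call that did not survive leaving out CD4T replicate 2 (adjusted p 0.079 to 0.11). Smarca2 (adjusted p = 0.16) and Eif4a2 (0.095) lost theirs there as well.

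Among the increases outside the lists, Plac8, a small cysteine-rich protein of immune cells, read 6.70, 6.27 and 6.36 in CD4T and 10.79, 10.46 and 10.50 in CD8abT (4.14 ± 0.18, 17.7-fold, adjusted p = 0.00022). It was bright on every CD8abT array and kept its call throughout. Drc1, a component of ciliary dynein regulation, read 4.34, 4.32 and 4.24 against 7.92, 8.93 and 8.48 (4.14 ± 0.26, 17.6-fold), with a second probe set at 1.56 ± 0.21 that was also called. Activated and memory T cell genes did not share a direction. S100a6, S100a10 and Anxa2, a set of calcium- and membrane-binding proteins, were higher (1.61 ± 0.31, 0.73 ± 0.14 and 0.86 ± 0.18), while Ahnak, a giant scaffold protein (-1.93 ± 0.28), Itgb1, Cxcr3 and Ccr2 were lower, among 23 measured. Without CD4T replicate 2 the adjusted p-values of S100a6, S100a10, Anxa2 and Ahnak were 0.16, 0.19, 0.21 and 0.10.

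Markers of cells that thymic culture can hold were read to check the sort. Of 27 fibroblast and endothelial markers 3 were called higher (11.1%) and none lower, with a median of 0.32. Col4a1, a basement membrane collagen, read 3.96, 3.91 and 3.88 in CD4T and 5.67, 5.71 and 5.58 in CD8abT (1.74 ± 0.12, adjusted p = 0.0016). Col3a1, a fibrillar collagen, read 5.02, 5.06 and 5.20 against 7.25, 6.67 and 6.05 (1.56 ± 0.29), and Col6a1 was 0.64 ± 0.13. The Col6a1 call was lost in 5 of the 6 fits that left out 1 array. The count of 3 was 5 without CD4T replicate 1 and 1 without CD4T replicate 2, CD4T replicate 3 or CD8abT replicate 2. The summed signal of the 27 markers was 2989, 2058 and 1934 in CD4T and 2963, 3455 and 3219 in CD8abT, with overlap through CD4T replicate 1. Of the 27, 12 lay below the array median on all 6 arrays. The list holds Thy1, which T cells express too, so this sum and its overlap do not read stromal cells alone.

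Of 18 thymic epithelial markers, Krt8, a keratin (0.71 ± 0.16), and Ctsl, the cortical cathepsin of the thymus (1.74 ± 0.35), were called higher and Cd83 lower. Their summed signal was 614 to 629 in CD4T and 597 to 735 in CD8abT, and 10 of 18 lay below the array median throughout. The part of stromal RNA in the higher values was not tested. Without CD4T replicate 2 the adjusted p-values of Col3a1, Krt8 and Ctsl were 0.16, 0.23 and 0.17, while Col4a1 kept its call. None of 23 macrophage and dendritic cell markers and none of 16 granulocyte and mast cell markers was called by limma. At an unadjusted p under 0.05 there were 5 higher and 3 lower in the first list and 2 higher in the second. Of all probe sets 24.2% were under that p in either direction. Among 10 erythroid and platelet markers Hba-a1, a haemoglobin chain, was lower (-1.12 ± 0.17), a call lost in 3 of the 6 fits that left out 1 array.

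**Figure D3:**
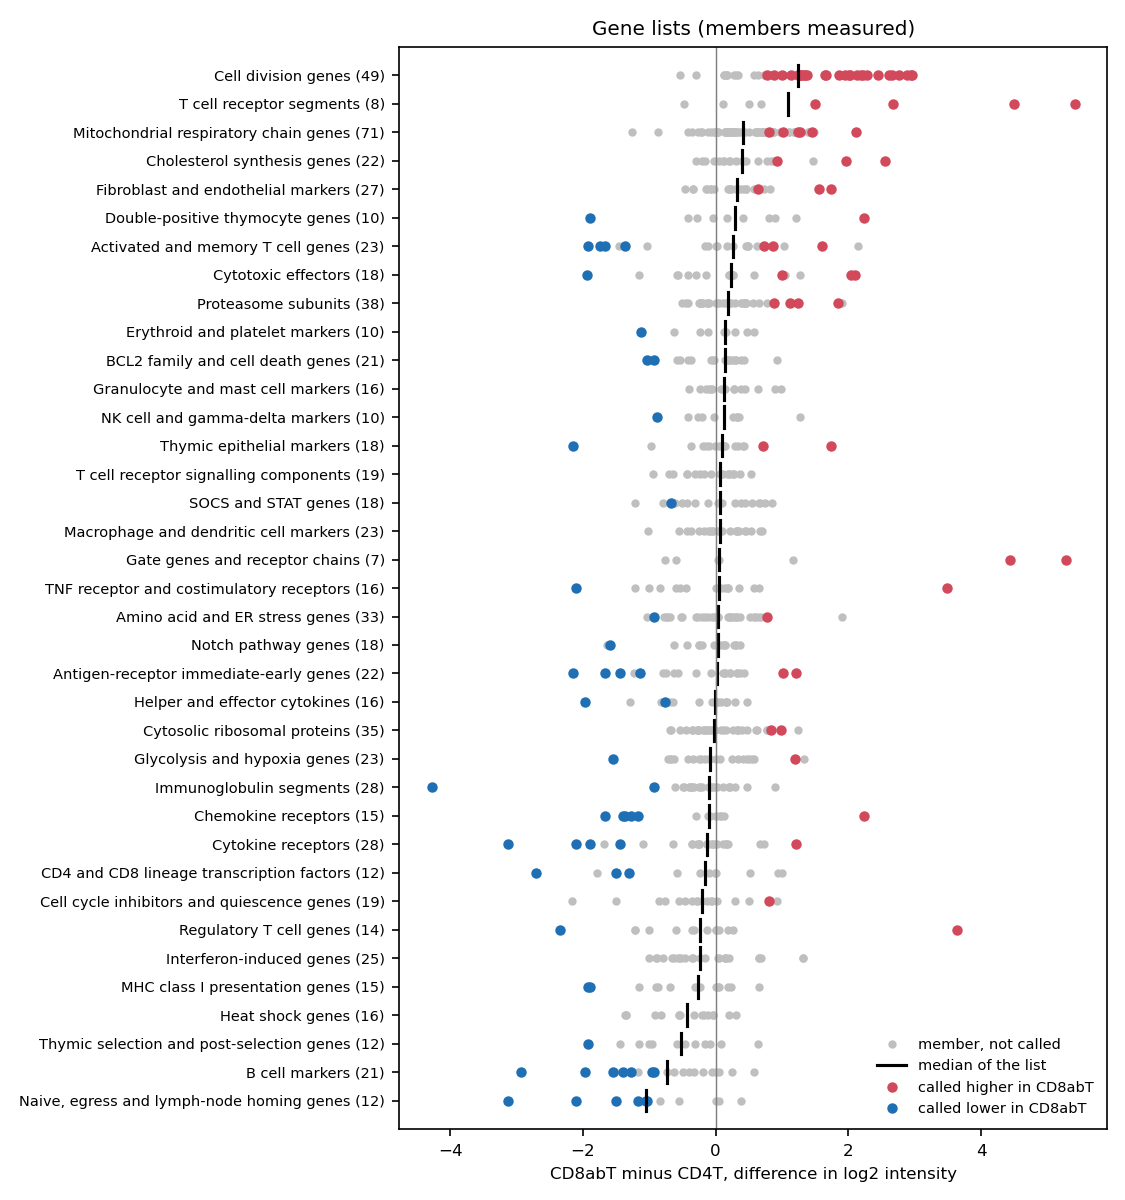
Differences in log2 intensity, CD8abT minus CD4T, of the measured members of 37 gene lists (number measured in brackets), 1 point per gene, coloured where called, with a bar at each list's median. The median is 1.23 for cell division genes, -0.74 for B cell markers and -1.05 for naive and homing genes, and 0.03 over all genes.

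To see which of these differences appear in other samples from the same sources, CD8abT minus CD4T was set beside CD8aaT minus NKT, a comparison that shares no array with it. CD8aaT cells (n = 3) came from RTOC with the high agonist dose, which the labels write as 10 mM Smcy, sorted as TCRb+CD8a+CD8b-, and NKT cells (n = 3) were CD3+CD4+NK1.1+ cells of wild type C57BL/6 spleen. Both comparisons are RTOC minus spleen, fitted together on 12 arrays. In CD8aaT minus NKT 1959 probe sets were called (15.8%), 950 higher (7.65%) and 1009 lower (8.12%), and in CD8abT minus CD4T this larger fit called 2137 (17.2%), 1087 higher (8.75%) and 1050 lower (8.45%). Of the 728 called in CD8abT minus CD4T, 710 had the same sign there (97.5%, against 79.9% of all probe sets) and 607 were also called in the same direction (83.4%, against 15.2% of all). Only 2 were called in the opposite direction. Arrays with the same number deviated together within a source, with correlations of 0.64 to 0.74 between CD4T and NKT and of 0.55 to 0.64 between CD8abT and CD8aaT, so these are not independent repeats.

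The cell division genes were higher in both comparisons. Of the 28 called, 27 were called higher in CD8aaT minus NKT, as were 85.2% of all probe sets called higher in CD8abT minus CD4T. The median of the 49 genes in CD8aaT minus NKT was 1.24. Limma's test of the difference between the comparisons called none of the 49. At an unadjusted p under 0.05 it gave 3, a count with no share over all probe sets to set beside it. With replicate numbers within each source as a block the test called 2 of the 49, where 1.87% of all probe sets were called. They were the G1 cyclins Ccnd3 and Ccnd2 (differences of 0.91 and 0.68, adjusted p = 0.029 and 0.038), neither of them called in CD8abT minus CD4T. In CD8aaT minus NKT Cdk1 was 2.65 and Ccnb2 2.65, and Itgae 4.08. Cd28 was -2.10 and Gzmb 1.81. Fcer2a was -3.13. Of the 6 naive and homing genes, 1 was called in both (Il7r, -1.93 in CD8aaT minus NKT), and the list's median there was -0.24. The test of the difference called S1pr1 of this list, and with the block within each source it called 5 of 12, all more negative in CD8abT minus CD4T. The others were Klf2 (-1.24, adjusted p = 0.015), Il6st, the shared chain of IL-6 family receptors (-1.36, 0.0027), Foxp1 (-0.95, 0.026) and Cd55 (-0.88, 0.041).

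The test of the difference between the comparisons called 52 probe sets (0.419%), 37 more positive and 15 more negative in CD8abT minus CD4T, and 20 of these were among the 728. Allowing for replicate numbers within each source as a block raised the count to 232 (1.87% of all probe sets), with all 52 among them. Of the 764 genes under the naming rule 22 were called without that block and 67 with it, among them all 22. With the block the test also called Cd160 (3.48 in CD8abT minus CD4T and 1.10 in CD8aaT minus NKT, difference 2.44, adjusted p = 0.015, against 0.052 without it) and 8 of 23 activated and memory T cell genes. Cd8b1, part of the CD8abT gate and absent from the CD8aaT gate, differed by 4.47 (adjusted p = 0.0023). Trgv1 differed by 3.76, being 5.42 in CD8abT minus CD4T and 1.65 in CD8aaT minus NKT, and Trgv4 by 3.44 (4.50 and 1.13). Ccr9 (2.24 and 0.11) and Ctsw (2.04 and -0.10) were called higher in CD8abT minus CD4T and not in CD8aaT minus NKT, with differences of 2.16 (adjusted p = 0.033) and 2.17 (0.017). Plac8 was higher in both, by more beside CD4T (4.14 and 2.09, difference 2.06, adjusted p = 0.0085).

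Further genes differed between the comparisons, some of them without a call in CD8abT minus CD4T. Mmp9, a secreted matrix protease, was 0.10 ± 0.15 here and -3.58 in CD8aaT minus NKT (difference 3.69, adjusted p = 1.9e-05). Il4, the helper cytokine that NKT cells make, was -0.82 ± 0.20 and -4.48 (difference 3.66, adjusted p = 0.0065). Actn1, an actin crosslinker, was 0.13 ± 0.34 and 3.38 (difference -3.25, adjusted p = 0.0058). For these 3 genes the larger difference was in CD8aaT minus NKT. Cd9, a tetraspanin (-1.10 ± 0.17 and 1.76), and Car2, a carbonic anhydrase (-0.85 ± 0.14 and 1.88), were called in opposite directions. The CD8abT minus CD4T call of each was lost in 4 of the 6 fits that left out 1 array. Car2 also lay below the median level of all probe sets. Fasl, Ifng and Ccr2 were lower in both and by more in CD8aaT minus NKT, with differences of 2.36, 2.30 and 2.36. S1pr1 was called lower in CD8abT minus CD4T and not in the other comparison (-1.04 and 0.38, difference -1.44, adjusted p = 0.015).

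**Figure D4:**
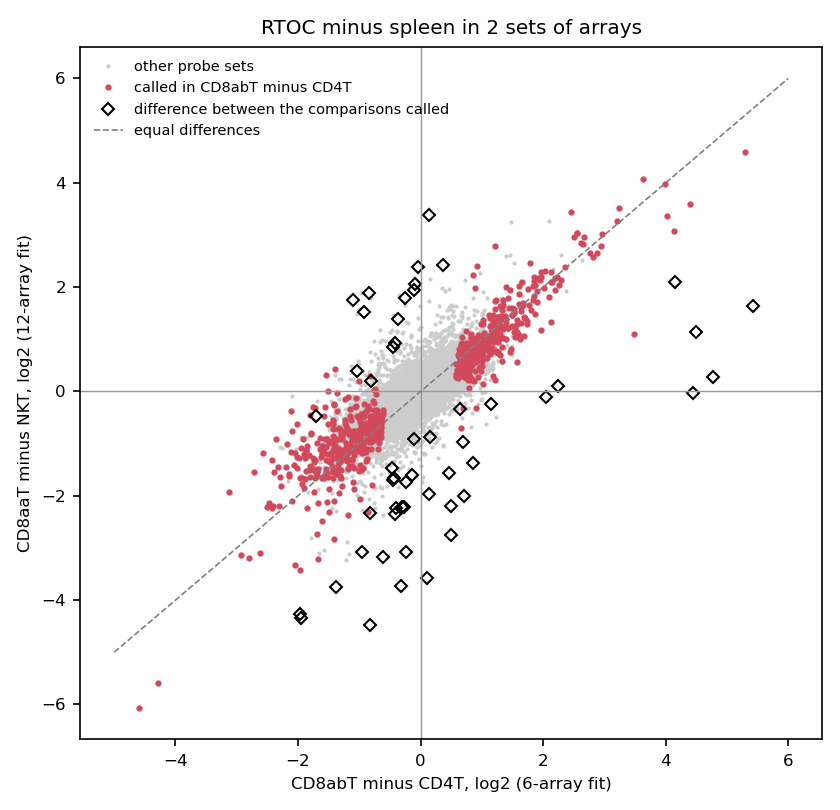
Difference in CD8abT minus CD4T (horizontal, log2, fit of 6 arrays) against CD8aaT minus NKT (vertical, log2, fit of 12 arrays) for 12422 probe sets, with a dashed line of equal differences. Open diamonds mark the 52 whose difference between comparisons was called. Red points are the 728 called in the first comparison, except the 20 of them drawn only as diamonds. Red points lie mostly in the lower left and upper right quadrants, and diamonds lie away from the line.

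**Figure D5:**
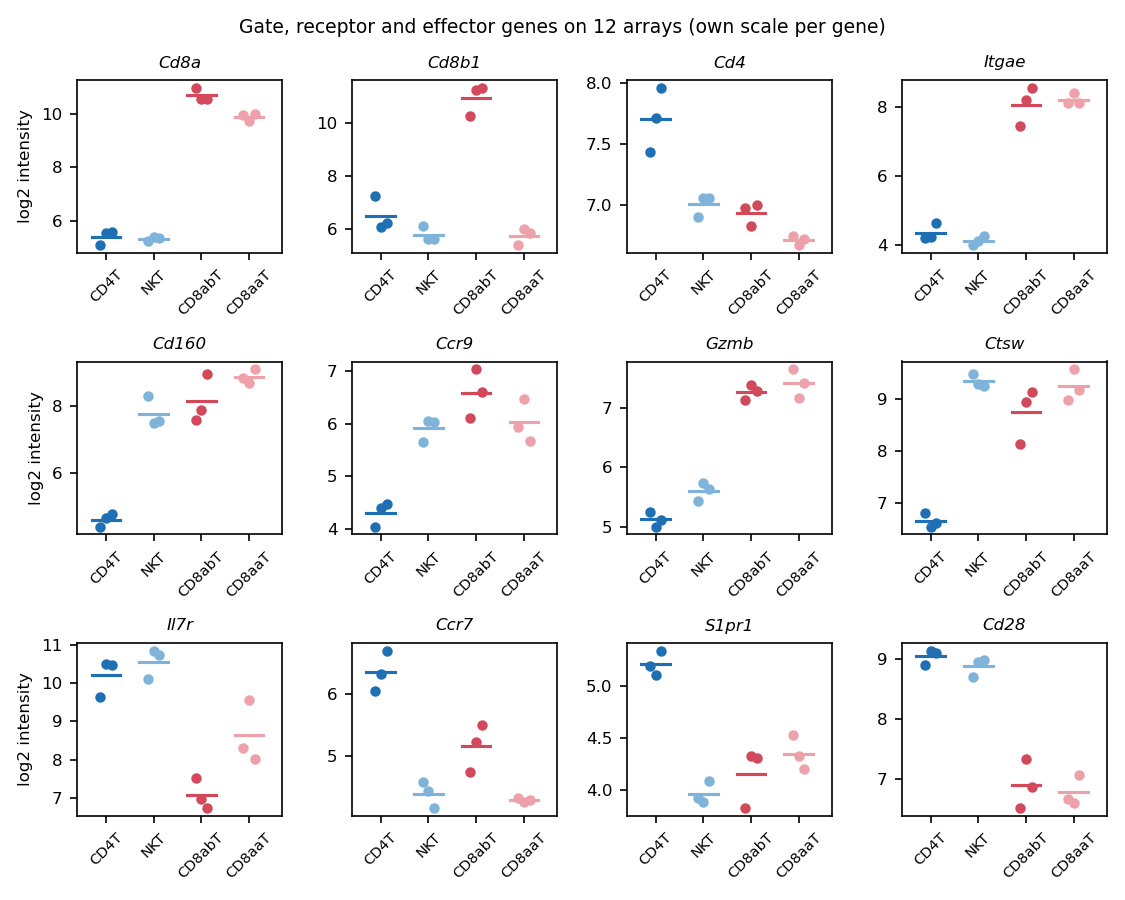
Log2 intensity, quantile normalized over 12 arrays, of gate, receptor and effector genes, each on its own scale, with 3 arrays per group as points and the mean as a bar. Cd8b1 is high in CD8abT alone, Itgae is high in both RTOC groups, Ccr9 and Cd160 are lowest in CD4T, and Ccr7 and S1pr1 are highest in CD4T.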

How the data were processed

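The authors deposited 1 intensity per probe set and array, on a linear scale, for RNA of sorted cells that was extracted with TRIZOL, amplified and turned into biotinylated cRNA, per the labels' protocols. Per the submitters' processing notes the values were made with RMA, a background correction, normalization between arrays and probe summary. Its settings and the arrays that entered it together are absent from the sources used here. Of 12488 probe sets 66 controls were left out. The platform annotation gave 10833 probe sets 1 symbol, 396 several and 1193 none, naming 8251 genes.

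The log2 intensities of CD4T and CD8abT were quantile normalized over these 6 arrays and fitted by lmFit and eBayes of limma 3.58.1 (R 4.3.3), with no block and no filter. The second fit used 12 arrays and 4 group means. The scripts were tested on simulated data. Genes named are the 15 with the largest called difference each way, free of overlap and with 1 proper symbol, the members of 37 lists, and the 10 with the largest difference between comparisons. Other genes, where named, were chosen after their values were seen. The comparison, lists and tests were chosen with earlier results of these data known. Alternatives were median centring, all 16 arrays, an offset of 32, a filter on dim probe sets, a test against a difference of 1, a replicate block and leaving out arrays. Deviations of same-numbered CD4T and CD8abT arrays correlated at -0.17, 0.22 and -0.35, so numbers were not taken to pair them.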

Additional observations from a re-analysis of the deposited data

Results flagged for a closer look

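For 19 genes, those called in CD8abT minus CD4T or among the 10 with the largest difference between comparisons, the change in CD8abT minus CD4T differed from that in CD8aaT minus NKT by the test of the difference in the 12-array fit (limma, no block, adjusted over 12422 probe sets). Same-numbered arrays deviated together within a source, and with that number as a block all 19 were called again and 45 further genes of the 764 under the naming rule were called. The difference was more positive in CD8abT minus CD4T for Cd8b1 (4.47), Trgv1 (3.76), Mmp9 (3.69), Il4 (3.66), Trgv4 (3.44), Lyz2 (2.70), Anxa1 (2.69), Aqp9 (2.55), Fasl (2.36), Ccr2 (2.36), Ifng (2.30), Ctsw (2.17), Ccr9 (2.16) and Plac8 (2.06). It was more negative for Actn1 (-3.25), Cd9 (-2.89), Car2 (-2.75), Nsg2 (-2.42) and S1pr1 (-1.44). Lyz2, a lysozyme of myeloid cells, was 0.70 ± 0.23 in CD8abT minus CD4T, not called, and -2.0 in CD8aaT minus NKT. Anxa1, an annexin, was 0.49 ± 0.19, not called, and -2.19. Aqp9, an aquaporin, was -0.62 ± 0.14 on a probe set below the array median on all 6 arrays, and -3.17. Nsg2, a neuronal vesicle protein, was -0.04 ± 0.19, not called, and 2.38. The other 3 of the 22 genes called without the block were Klra3, Klrk1 and Cd244a, none of them called in CD8abT minus CD4T. The brightest probe set is given, and for Mmp9, Il4, Lyz2, Anxa1 and Actn1 at least 1 other probe set of the gene showed a smaller difference.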

How the results depend on the processing

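All 16 arrays fitted together gave 1355 higher and 1246 lower calls, 715 with a difference of at least 1, 234 called list members of 745 (112 in the comparison as given) and 85 calls for the difference between comparisons. An offset of 32 gave 142 calls of at least 1. Leaving out probe sets below the median level gave 174 higher, 184 lower and 32 for the difference between comparisons. The test against a difference of 1 called 28 higher and 9 lower, 37 in all, with 17 list members. The replicate number as a block, which the check did not show to pair the samples, called 42 higher and 40 lower, 82 of at least 1, with 30 list members. Numbers within each source as a block gave 232 calls for the difference between comparisons. Leaving out 1 array gave 45 to 798 higher, 37 to 1094 lower, 82 to 1048 of at least 1, 35 to 213 list members and 26 to 119 for the difference between comparisons. Without replicate 1 of both groups, chosen after seeing the data, these were 1829 higher, 1797 lower, 1351 of at least 1 and 303 list members. The share of calls repeated in CD8aaT minus NKT was 58.5% to 95.1% over the alternatives that gave it. Rps19 (0.77), Rps24 (0.99) and Rps28 (1.01) changed sign with median centring, and Mcm4 (-0.62) and Ndufaf4 (-0.72) without replicate 1 of both groups. The cause was not tested. Of the 128 called named genes 38 kept their call in every fit that left out 1 array. A probe set near the floor gives a bound more than a level, so small differences there were not detectable.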
